A study of Rattus norvegicus with 18 samples.

Results

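A set of 10 genes of transforming growth factor beta (TGF-beta) signalling were followed in rat liver during treatment with diethylnitrosamine, a compound that liver enzymes turn into a DNA-alkylating agent and that causes liver tumours in rodents. They were taken by the gene symbols of the deposited workbook (Tgfb1, Tgfb2, Tgfb3, Inhba, Tgfbr1, Tgfbr2, Tgfbr3, Smad3, Smad7 and Ctgf) and are the 10 genes, with 18 probe sets, of 13926 named genes and 31099 probe sets on the Affymetrix Rat Genome 230 2.0 array. Sprague-Dawley rats gave 6 groups of 3 arrays, namely normal liver at 0 h and liver after 5, 8, 12, 16 or 18 weeks of treatment. All samples came from the right lobe, and the labels give every sample an age of 12 weeks, whatever its time on treatment. By the labels the 3 arrays within each group are technical replicates, so each p-value reflects array-to-array spread, which may be technical. Normal liver was sampled at 0 h alone, so time on treatment and age cannot be told apart. Dose, sex and the number of animals are not stated in the labels.

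TGF-beta ligands are secreted in a latent form, held in the matrix by latent TGF-beta binding proteins, and are released by integrins and proteases. An active ligand binds the type II receptor (Tgfbr2), which phosphorylates the type I receptor (Tgfbr1), and this in turn phosphorylates Smad2 and Smad3, which enter the nucleus with Smad4, while Smad7 is an inhibitory Smad that the pathway itself induces. In liver the pathway is known for turning stellate cells into collagen-producing myofibroblasts and for restraining hepatocyte growth.

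A change is given as the difference of log2(signal + 16) between the means of 3 arrays of each group, ± SE, from limma fitted to 18625 probe sets whose mean signal was above 94.4. A probe set was called, and is said to have risen or fallen, when the Benjamini-Hochberg adjusted p was under 0.05 and the change was at least 2-fold. Of the 18 probe sets of the 10 genes, 14 passed the filter on low signals and covered 9 genes, and Smad3 did not pass. A gene is represented by its brightest probe set unless another is named. Levels of different probe sets are not compared with each other, since their scales differ. Tissue was measured in bulk, so fewer cells of a type and less RNA per cell cannot be told apart.

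Across probe sets, which are not independent replicates, the correlation between arrays was 0.980 to 0.988 within a group and 0.863 to 0.974 between groups. None of the 8 hepatocyte markers listed was called at any time against normal liver, with medians between -0.26 and -0.55. Of 4 tested markers of exocrine pancreas 3 fell at 5 weeks, where 2.55% of all tested probe sets fell. Cpa1, which encodes a pancreatic carboxypeptidase, had a mean signal of 6264 in normal liver and of 24.6 to 163 in the treated groups. The summed signal of the 8 pancreas markers was 22788 to 24183 on the normal arrays, 17525 to 17866 at 5 weeks and 14793 to 15397 at 8 weeks. It was 6184 to 6376 at 12 weeks, 5847 to 6197 at 16 weeks and 6087 to 6129 at 18 weeks. At 5 and 8 weeks 5 and 7 of the 8 had a group mean below the filter level. The sum at 8 weeks therefore came almost wholly from the remaining marker and does not follow the list as a whole. The part of pancreas tissue in the comparisons with normal liver was not tested. As deposited, the median change of all tested probe sets from normal liver was 0.049, 0.10, 0.18, 0.21 and 0.093 from 5 to 18 weeks. After each array was centred on its median these values were -0.051, -0.0063, -0.20, -0.26 and -0.093. The share of calls that were higher than normal then moved from 67.0% to 54.8% at 5 weeks, from 59.6% to 49.0% at 8 weeks, from 75.0% to 40.9% at 12 weeks, from 75.2% to 38.03% at 16 weeks and from 69.3% to 51.8% at 18 weeks. With quantile normalization it was 61.8% at 12 weeks and 60.6% at 16 weeks. From 8 to 12 weeks it moved from 80.2% to 69.5% with quantile normalization and 49.9% after median centring, from 12 to 16 weeks from 64.1% to 48.8% after median centring, and from 16 to 18 weeks from 7.61% to 21.7% and 41.0%.

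Against normal liver, Tgfb1 rose at every time, Ctgf from 8 weeks on and Tgfb3 from 12 weeks on. Of 9 tested genes 1 rose at 5 weeks, where 5.18% of all tested probe sets rose. At 8 weeks 3 rose, against 7.76% of all tested probe sets, and 1 fell, against 5.26%. At 12 weeks 5 rose (12.4% of all), at 16 weeks 3 (15.7% of all) and at 18 weeks 3 (10% of all). The median change of the 9 genes was 0.19, 0.43, 1.06, 0.78 and 0.55 from 5 to 18 weeks. The 3 treated arrays all lay above the 3 normal arrays for 4, 6, 8, 7 and 7 of the 9 genes, against 30.0%, 36.1%, 42.0%, 44.5% and 36.4% of all tested probe sets. Of the 9 tested genes 4 (44.4%) had their highest mean at 16 weeks, against 27.5% of all tested probe sets, and none had it in normal liver, against 20.3%. The untested Smad3 also had its highest mean at 16 weeks.

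**Figure D1:**
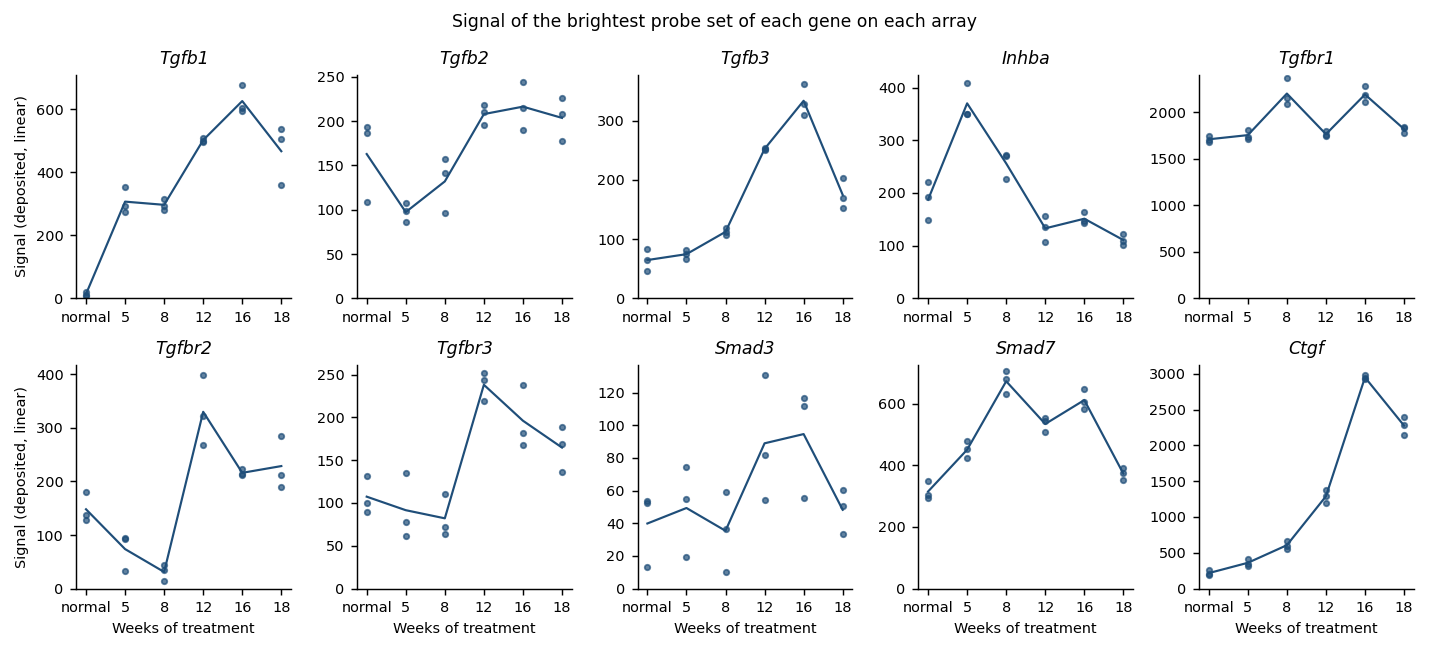
Deposited linear signal (vertical axes, each from 0 and on its own scale) of the brightest probe set of each of the 10 genes in normal liver and after 5 to 18 weeks of treatment. Points are single arrays, 3 per group, and lines join the group means. Ctgf climbs from 187 to 256 in normal liver to 2923 to 2987 at 16 weeks, Inhba is highest at 5 weeks, and Tgfbr2 is lowest at 8 weeks.

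Among the ligands, Tgfb1 encodes the form that is most studied in liver fibrosis. Its signals were 11.8, 8.11 and 20.9 on the normal arrays, 352, 294 and 275 at 5 weeks, and 282, 317 and 293 at 8 weeks. They were 500.2, 511 and 497 at 12 weeks, 677, 606 and 597 at 16 weeks, and 506, 536 and 359 at 18 weeks. Every treated array lay far above every normal array, and the order of the means was normal, 8, 5, 18, 12 and 16 weeks, with overlap between 8 and 5 weeks and between 18 and 12 weeks. The change from normal liver was 3.46 ± 0.154 at 5 weeks (adjusted p = 2.87e-10, limma), 3.42 ± 0.154 at 8 weeks, 4.15 ± 0.154 at 12 weeks, 4.46 ± 0.154 at 16 weeks (adjusted p = 3.26e-12) and 4.03 ± 0.154 at 18 weeks. The normal signals were below the level of the filter, so the sizes depend on the pseudocount, and the authors' deposited table gives a median log2 ratio of 5.2 at 16 weeks and 4.9 at 18 weeks. From 8 to 12 weeks the difference was 0.73 ± 0.154 (adjusted p = 0.00111, limma) and from 16 to 18 weeks -0.43 ± 0.154 (adjusted p = 0.0419), both under 2-fold.

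The 250 bases upstream of the annotated start of Tgfb1 are shown beside those of Ctgf, since these were the genes of the 10 furthest from normal liver at 16 weeks. Sequences are from the RefSeq table of build GRCr8, written 5′ to 3′ on the strand of the gene, at chr1:90324062-90324311 on the plus strand for Tgfb1 and chr1:22624615-22624864 on the minus strand for Ctgf, which the table names Ccn2. Capitals mark matches on either strand to 3 letter patterns, which are GTCT, the core that Smad3 and Smad4 bind, GGAATG, the core of TEAD factors, and TATAAA.
Tgfb1: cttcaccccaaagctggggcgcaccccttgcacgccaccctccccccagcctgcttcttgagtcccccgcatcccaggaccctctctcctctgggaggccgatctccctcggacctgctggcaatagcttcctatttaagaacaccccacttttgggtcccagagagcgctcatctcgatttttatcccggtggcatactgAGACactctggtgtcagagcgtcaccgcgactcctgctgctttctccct
Ctgf: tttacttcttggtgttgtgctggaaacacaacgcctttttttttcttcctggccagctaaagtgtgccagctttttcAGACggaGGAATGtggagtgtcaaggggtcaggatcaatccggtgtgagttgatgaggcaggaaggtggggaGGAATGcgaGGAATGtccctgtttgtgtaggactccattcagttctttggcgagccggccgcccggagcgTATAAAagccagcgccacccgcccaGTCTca
The Ctgf window held 3 matches to GGAATG, a number that 0.0911% of 27457 such windows reach, 2 to GTCT (55.2% of windows hold at least 2) and 1 to TATAAA (13.1% hold at least 1). The Tgfb1 window held 1 match to GTCT (83.9% of windows hold at least 1) and none to GGAATG (11.8%) or TATAAA. Neither window held TGACTCA, the site of AP-1, which 3.98% of windows hold, or CAGACA, the longer Smad-binding pattern, which 16.9% hold. Searches covered both strands, and a CAGACA match would contain a GTCT match. A match describes letters in the window and is not a measured binding site.

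Tgfb3 encodes a ligand that signals through the same receptors. Its signals were 65.2, 45.9 and 83.0 on the normal arrays, 75.2, 81.5 and 67.1 at 5 weeks, and 112, 118 and 107 at 8 weeks. They were 254, 252 and 251 at 12 weeks, 329, 310 and 362 at 16 weeks, and 203, 170 and 152 at 18 weeks. Normal and 5-week arrays overlapped, and each later mean in the order 8, 18, 12 and 16 weeks was apart from its neighbour on all 3 arrays. Tgfb3 rose at 12 weeks by 1.76 ± 0.136 (adjusted p = 3.48e-08, limma), at 16 weeks by 2.14 ± 0.136 (adjusted p = 3.05e-09) and at 18 weeks by 1.26 ± 0.136 (adjusted p = 1.45e-06). The difference at 8 weeks was 0.69 ± 0.136 (adjusted p = 0.000516), and at 18 against 16 weeks it was -0.88 ± 0.136 (adjusted p = 0.000205), neither of them 2-fold. With a pseudocount of 64 the change at 18 weeks was 0.90, which is not a call. The normal and 5-week signals lay under the filter level, so the size of the change depends on the pseudocount. The authors' deposited table gives median log2 ratios of 1.7, 2.1 and 1.3 at 12, 16 and 18 weeks.

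Tgfb2, whose product needs a co-receptor for high-affinity binding, had 5 probe sets that disagreed. The brightest, 1388011_a_at, read 109, 187 and 193 on the normal arrays, 99.0, 85.7 and 108 at 5 weeks, and 190, 215 and 245 at 16 weeks, with no call at any time against normal liver. Its change was -0.63 ± 0.188 at 5 weeks (adjusted p = 0.0131, limma) and 0.41 ± 0.188 at 16 weeks (adjusted p = 0.0703). After median centring its change was -0.021 at 12 weeks and -0.060 at 16 weeks, and after quantile normalization -0.025 at 16 weeks, so its direction at those times depends on the scaling. A probe set of nearly the same mean, 1376425_at, read 95.8, 61.7 and 78.5 in normal liver and 236, 260 and 229 at 16 weeks. It rose at 12, 16 and 18 weeks, by 1.37 ± 0.145, 1.46 ± 0.145 and 1.26 ± 0.145 (adjusted p = 1.07e-06, 4.49e-07 and 2.88e-06). The probe set 1387172_a_at, with normal signals of 33.3, 93.1 and 19.4 and 16-week signals of 254, 261 and 194, rose at the same times, by 2.09 ± 0.425, 2.12 ± 0.425 and 2.16 ± 0.425 (adjusted p = 0.000606, 0.000471 and 0.000499). Both had all arrays of 12 to 18 weeks above all normal arrays, while those of the brightest overlapped normal liver at 16 and 18 weeks. The normal means of these 2 probe sets (78.7 and 48.6) lay under the filter level, so the sizes of their changes depend on the pseudocount. The means of 1387172_a_at at 5 and 8 weeks (53.2 and 82.5) lay under it too. That probe set passed the filter only through the groups where it was high, so its calls there are a description and not separate support. The remaining 2 probe sets were below the filter and had no test beside the others. With no filter on low signals 1392382_at was called higher at 12, 16 and 18 weeks (1.94, 1.70 and 1.28, adjusted p = 1.08e-05, 3.1e-05 and 0.000543, limma) and 1378963_at at 16 weeks (1.09, adjusted p = 0.0116), with mean normal signals of 21.4 and 6.07. At 16 weeks all of the probe sets but the brightest were then called higher.

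Inhba encodes the activin A subunit, a ligand of the same superfamily that acts through activin receptors and the same Smads. Its signals were 149, 193 and 220 on the normal arrays, 350.1, 409 and 351 at 5 weeks, and 271, 227 and 270.4 at 8 weeks. They were 108, 156 and 135 at 12 weeks, 163, 147 and 144 at 16 weeks, and 121, 102 and 109 at 18 weeks. The 5-week arrays lay above all others and the 8-week arrays came next, while 18, 12 and 16 weeks and normal liver overlapped from neighbour to neighbour. Against normal liver no time was called, with 0.94 ± 0.135 at 5 weeks (adjusted p = 5.09e-05, limma) and -0.67 ± 0.135 at 18 weeks (adjusted p = 0.000609), both under 2-fold. Without the third normal array the change at 5 weeks was 1.05, which is a call. The authors' deposited table gives median log2 ratios of 0.8, 0.1, -0.9, -0.2 and -0.6 from 5 to 18 weeks, where the fit has 0.43 at 8 weeks and -0.45 at 12 weeks. Against 5 weeks, a reference chosen after the data were seen, Inhba fell at 12, 16 and 18 weeks, with changes of -1.38 ± 0.135, -1.21 ± 0.135 and -1.61 ± 0.135 (adjusted p = 7.87e-07, 2.9e-06 and 1.61e-07). Among all tested probe sets 2.74%, 3.26% and 3.43% fell against 5 weeks at those times.

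**Figure D2:**
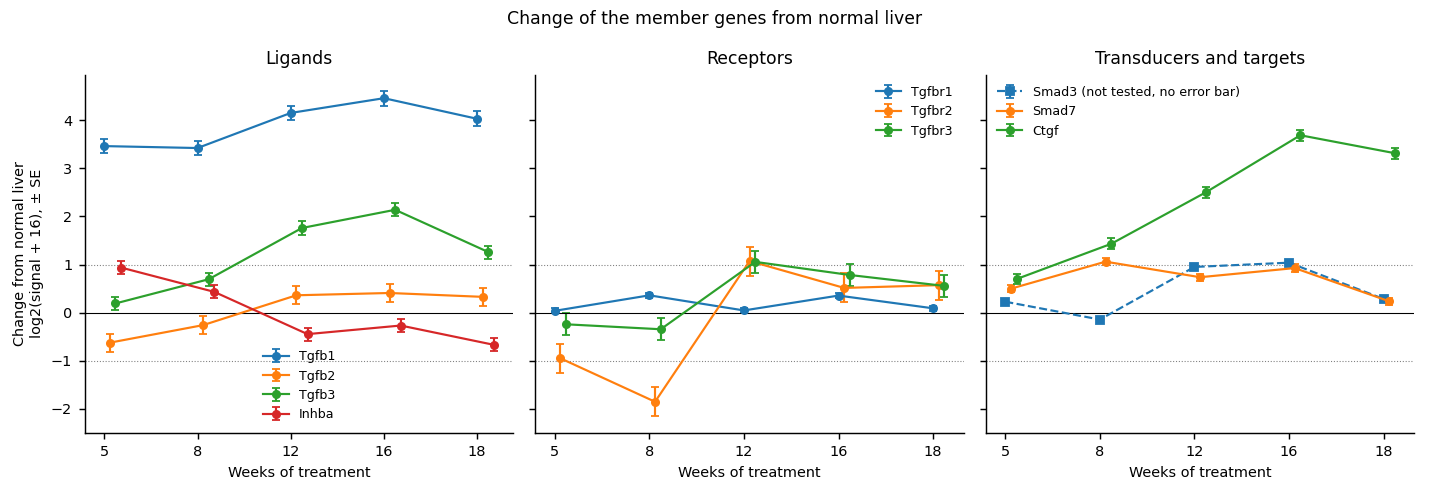
Change from normal liver in log2(signal + 16) for the 10 genes by weeks of treatment (n = 3 arrays per group, brightest probe set). Error bars give the SE, except for Smad3, which was not tested and has none. Tgfb1 lies above 3 at every time, Ctgf reaches 3.69 and Tgfb3 2.14 at 16 weeks, and Tgfbr2 passes from -1.85 at 8 weeks to 1.07 at 12 weeks.

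Of the receptors, Tgfbr2 and 1 of 2 probe sets of Tgfbr1 were lower than normal at 8 weeks, and Tgfbr2 and Tgfbr3 were higher at 12 weeks. Tgfbr2 encodes the type II receptor that binds the ligand first. Its signals were 180, 137 and 128 on the normal arrays, 93.3, 94.7 and 33.2 at 5 weeks, and 44.5, 34.9 and 13.5 at 8 weeks. They were 399, 323 and 269 at 12 weeks, 212, 223 and 214 at 16 weeks, and 284, 212 and 190 at 18 weeks. All 5-week and 8-week arrays lay below all normal arrays, and all arrays of 12 to 18 weeks lay above them. Tgfbr2 fell at 8 weeks, with a change of -1.85 ± 0.302 (adjusted p = 0.000103, limma), and rose at 12 weeks by 1.07 ± 0.302 (adjusted p = 0.00648). At 5 weeks the change was -0.95 ± 0.302 (adjusted p = 0.0173), at 16 weeks 0.51 ± 0.302 and at 18 weeks 0.57 ± 0.302, none of them a call. The call at 12 weeks was lost after quantile normalization (0.74), median centring (0.69), with a pseudocount of 64 (0.89), without the third normal array (0.98) and without the first 12-week array (0.93). The 5-week value became a call without the first or the second 5-week array (-1.14 and -1.15), without the third normal array (-1.04) and after quantile normalization (-1.08), and without the third 5-week array it was -0.56 (adjusted p = 0.0909, limma).

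Tgfbr1, the type I receptor kinase, was read by 2 probe sets that parted at 5 and 8 weeks. The brighter, 1376636_at, read 1679, 1708 and 1746 on the normal arrays, 1811, 1741 and 1715 at 5 weeks, and 2150, 2373 and 2086 at 8 weeks. It was called at no time, with changes from 0.037 to 0.36, and after median centring its changes were -0.063, -0.34, -0.11 and -0.096 at 5, 12, 16 and 18 weeks. The other, 1369504_at, read 349, 229 and 331 on the normal arrays, 71.8, 118 and 86.1 at 5 weeks, and 77.9, 41.0 and 76.3 at 8 weeks. It read 178, 199 and 224 at 12 weeks, 192, 248 and 285 at 16 weeks, and 177, 160 and 203 at 18 weeks. Its 5-week and 8-week arrays lay below those of every other group, and it fell at 5 weeks (-1.57 ± 0.216, adjusted p = 3.36e-05, limma) and at 8 weeks (-1.99 ± 0.216, adjusted p = 1.92e-06). At 12 weeks its change was -0.54 ± 0.216 (adjusted p = 0.0404), under 2-fold.

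The ratios of 3′ to 5′ control probe sets, which increase when transcripts are shortened, were highest at 8 weeks and next highest at 5 weeks. For Gapdh the mean was 2.12 at 8 weeks (SD 0.0521, n = 3) and 1.48 at 5 weeks (SD 0.0293), and the other groups had means of 1.12 to 1.32. For beta-actin it was 4.48 at 8 weeks (SD 0.203) and 3.52 at 5 weeks (SD 0.260), and the other groups had 2.29 to 2.69. The low signals of Tgfbr2 and of the probe set 1369504_at of Tgfbr1 fell on these same arrays. The part of RNA integrity in these receptor values, or in the 5-week and 8-week values of the other genes, was not tested.

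**Figure D3:**
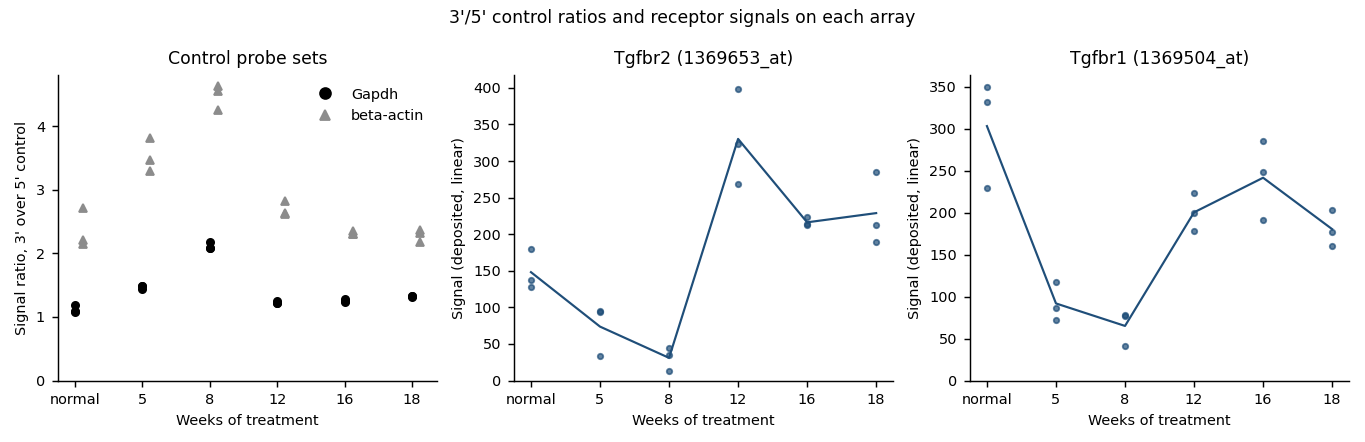
Left, ratio of 3′ to 5′ control probe sets of Gapdh and beta-actin on each array, and middle and right, deposited linear signals of Tgfbr2 and of the probe set 1369504_at of Tgfbr1 on the same arrays. Points are arrays, 3 per group, lines join the means, and all axes start at 0. The control ratios are highest at 8 weeks (means of 2.12 and 4.48), where both receptor signals are lowest.

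Tgfbr3 encodes betaglycan, a co-receptor that presents ligand, Tgfb2 in particular, to the type II receptor. Its brighter probe set, 1387484_at, read 132, 101 and 90.0 on the normal arrays, 63.4, 72.4 and 111 at 8 weeks, and 219, 244 and 252 at 12 weeks. The 12-week arrays lay above all normal and 8-week arrays, whereas normal, 5-week and 8-week arrays overlapped. Tgfbr3 rose at 12 weeks by 1.06 ± 0.231 (adjusted p = 0.0011, limma), and the changes at 16 and 18 weeks were 0.78 ± 0.231 (adjusted p = 0.00811) and 0.55 ± 0.231 (adjusted p = 0.0524). The second probe set, 1369219_at, was not called, with 0.80 ± 0.282 at 12 weeks (adjusted p = 0.0231). The call at 12 weeks was lost after quantile normalization (0.70), median centring (0.67), with a pseudocount of 64 (0.82), with the mean of both probe sets (0.93) and without the third normal array (0.95).

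Of the Smads, Smad7 encodes the inhibitory Smad that blocks the type I receptor, and Smad3 encodes a receptor-activated Smad that carries the signal to the nucleus. Smad7, at its brightest probe set 1368896_at, read 294, 303 and 348 on the normal arrays, 452, 478 and 423 at 5 weeks, and 681, 632 and 706 at 8 weeks. It read 508, 553 and 543 at 12 weeks, 605, 584 and 648 at 16 weeks, and 376, 393 and 351 at 18 weeks. Every treated array lay above every normal array, and the means ran in the order normal, 18, 5, 12, 16 and 8 weeks, with overlap only between 16 and 8 weeks. Smad7 rose at 8 weeks by 1.06 ± 0.0746 (adjusted p = 1.93e-08, limma), and its change was 0.93 ± 0.0746 at 16 weeks (adjusted p = 4.45e-08) and 0.24 ± 0.0746 at 18 weeks (adjusted p = 0.014), both under 2-fold. The call at 8 weeks was lost after quantile normalization (0.90), median centring (0.95), with a pseudocount of 64 (0.96) and with the mean of its probe sets (0.46). The authors' deposited table gives this probe set lower median log2 ratios, of 0.1, 0.6, 0.6, 0.8 and 0 from 5 to 18 weeks, where the fit has 0.50 at 5 weeks and 0.74 at 12 weeks. A second probe set, 1368897_at, had a change of -0.17 ± 0.16 at 8 weeks (adjusted p = 0.391) and of 0.96 ± 0.16 at 12 weeks (adjusted p = 0.000106), so the 2 probe sets gave different times of their highest signal. The third, 1368898_at, was below the filter and was not tested. The 8-week arrays had the highest 3′/5′ control ratios (means of 2.12 for Gapdh and 4.48 for beta-actin). The part of RNA integrity in the 8-week values of Smad7 was not tested.

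Smad3 had a single probe set whose signals were 52.6, 53.7 and 13.2 on the normal arrays, 19.1, 74.2 and 54.7 at 5 weeks, and 10.1, 36.6 and 59.4 at 8 weeks. They were 81.6, 54.3 and 131 at 12 weeks, 55.6, 117 and 112 at 16 weeks, and 33.7, 50.4 and 60.6 at 18 weeks. The arrays of 1 group differed by as much as the groups did, and neighbouring means in the order of levels overlapped throughout. With no filter on low signals it was not called at any time either.

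**Figure D4:**
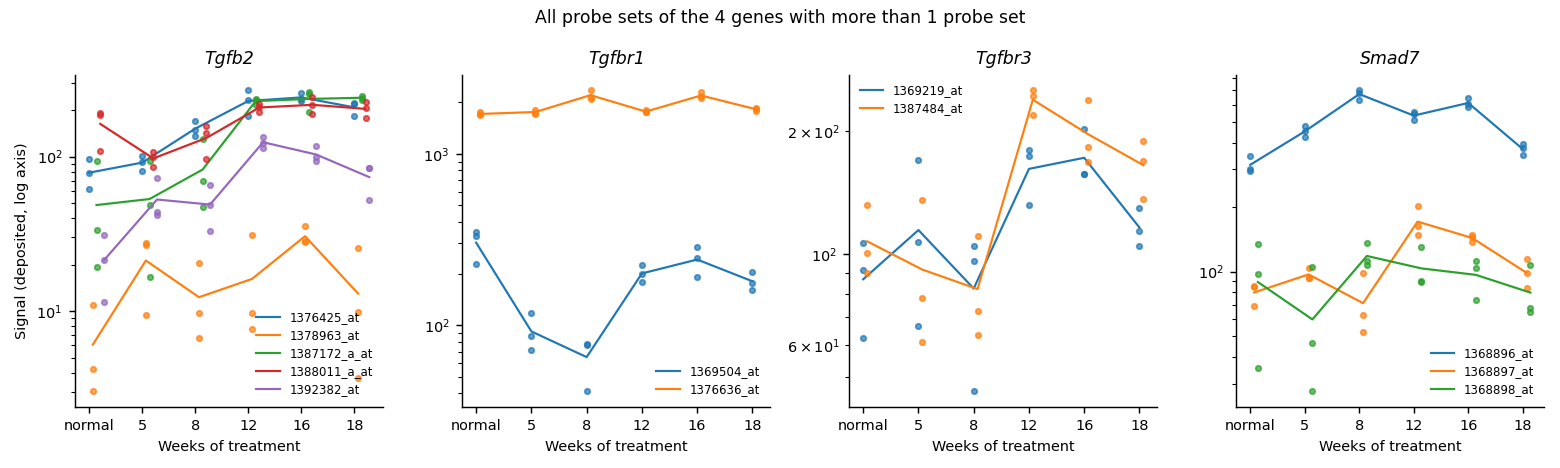
Deposited signal (log axis) of every probe set of Tgfb2, Tgfbr1, Tgfbr3 and Smad7, the 4 genes with more than 1 probe set, by weeks of treatment. Points are arrays, 3 per group, and lines join the group means. The 2 probe sets of Tgfbr1 part at 5 and 8 weeks, and all 3 tested probe sets of Tgfb2 have 12-week arrays above their 8-week arrays, while the brightest was not called against normal liver.

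Ctgf encodes connective tissue growth factor, a matricellular protein and a target of both TGF-beta and the Hippo pathway that accompanies fibrosis. Its signals were 187, 204 and 256 on the normal arrays, 418, 316 and 345 at 5 weeks, and 599, 664 and 554 at 8 weeks. They were 1379, 1286 and 1202 at 12 weeks, 2987, 2941 and 2923 at 16 weeks, and 2400, 2282 and 2145 at 18 weeks. No 2 groups overlapped, and the means ran in the order normal, 5, 8, 12, 18 and 16 weeks. The change from normal liver was 0.70 ± 0.113 at 5 weeks (adjusted p = 0.000135, limma), which is under 2-fold, and Ctgf rose by 1.43 ± 0.113 at 8 weeks, 2.50 ± 0.113 at 12 weeks, 3.69 ± 0.113 at 16 weeks (adjusted p = 8.89e-13) and 3.32 ± 0.113 at 18 weeks. The authors' deposited table gives median log2 ratios of 0.7, 1.5, 2.7, 3.8 and 3.5 at the 5 times.

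In comparisons of each time with the one before, most of the calls lay between 8 and 12 weeks. From 5 to 8 weeks none of the 9 genes was called by limma, where 3.07% of all tested probe sets were called and 7863 had an unadjusted p under 0.05. Tgfbr2 came nearest, with -0.90 ± 0.302 (adjusted p = 0.0328), and was a call without the third 5-week array (-1.29) or the first 8-week array (-1.12). From 8 to 12 weeks 4 genes rose (7.35% of all tested probe sets), namely Tgfb3 by 1.07 ± 0.136 (adjusted p = 1.27e-05), Tgfbr2 by 2.93 ± 0.302 (adjusted p = 1.47e-06), Tgfbr3 by 1.40 ± 0.231 (adjusted p = 0.000144) and Ctgf by 1.07 ± 0.113 (adjusted p = 1.79e-06). The rise of Tgfb3 was not a call after quantile normalization (0.82), median centring (0.79) or with a pseudocount of 64 (0.84), nor that of Ctgf after median centring (0.80), while Inhba fell at this step after either scaling (-1.13 and -1.15). The weaker probe sets of Tgfbr1 and Smad7 also rose at this step, by 1.45 ± 0.216 (adjusted p = 5.82e-05) and 1.13 ± 0.16 (adjusted p = 3.57e-05), while the brightest of these genes had -0.31 ± 0.054 and -0.32 ± 0.0746. The Gapdh 3′/5′ ratio went from 2.12 to 1.23 over the same step, and its part in these differences was not tested. From 12 to 16 weeks Ctgf alone of the 9 rose, by 1.19 ± 0.113 (adjusted p = 3.12e-06), where 0.864% of all tested probe sets rose. From 16 to 18 weeks none was called by limma, where 2.96% of all tested probe sets were called and 8334 had an unadjusted p under 0.05, and the median of the 9 genes was -0.37 against -0.081 for all tested probe sets.

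Against 5 weeks, which avoids the normal arrays, 4 of the 9 genes rose at 12 weeks (6.49% of all tested probe sets), 5 at 16 weeks (7.82%) and 3 at 18 weeks (5.14%), and Inhba fell at each of these times. Ctgf rose by 2.99 ± 0.113 at 16 weeks, Tgfb3 by 1.95 ± 0.136, Tgfbr2 by 1.46 ± 0.302, Tgfbr3 by 1.03 ± 0.231 and the brightest probe set of Tgfb2 by 1.03 ± 0.188 (adjusted p = 1.64e-11, 1.64e-08, 0.000833, 0.00169 and 0.000306, limma). Tgfb1 was not among them, with 0.997 ± 0.154 (adjusted p = 6.8e-05), just under 2-fold, and it was a call without the second or the third 16-week array or the first 5-week array (1.02, 1.03 and 1.09). The calls of Tgfb2 and Tgfbr3 at 16 weeks were lost after either scaling (0.67 to 0.68 and 0.65 to 0.66), with a pseudocount of 64 (0.79 and 0.76) and without several single arrays (0.95 to 0.96 for Tgfb2 and 0.81 to 0.96 for Tgfbr3), and that of Tgfb3 at 18 weeks after median centring (0.98), quantile normalization (0.99), with a pseudocount of 64 (0.78) and without the first 18-week array (0.97). With the mean of its probe sets Tgfbr3 was called neither at 12 weeks (0.91) nor at 16 weeks (0.81), and with a pseudocount of 64 its 12-week change was 0.99. The second probe set of Tgfbr3, 1369219_at, was not called at 16 weeks (0.60 ± 0.282, adjusted p = 0.0889, limma). The 5-week arrays had the second highest 3′/5′ ratios (means of 1.48 for Gapdh and 3.52 for beta-actin). The part of RNA integrity in the differences from 5 weeks was not tested.

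Other genes of the family were taken from 6 lists of 76 genes that hold none of the 10, and 59 of them were tested. The lists were chosen with earlier results of these data known, so their counts are descriptive. Of these 59 genes, 8 rose and none fell at 5 weeks, 15 rose and 1 fell at 8 weeks, 24 rose and 2 fell at 12 weeks, 26 rose and 3 fell at 16 weeks, and 22 rose and 2 fell at 18 weeks. Of all tested probe sets 5.18%, 7.76%, 12.4%, 15.7% and 10% rose and 2.55%, 5.26%, 4.13%, 5.17% and 4.43% fell at these times. Their median change at 16 weeks was 0.78, against 0.21 for all tested probe sets, and 31 of the 59 (52.5%) had their highest mean at 16 weeks. Median centring of the arrays gave 22 that rose and 4 that fell at 16 weeks with a median change of 0.31, and quantile normalization gave 23 and 2 with a median of 0.50. The stricter filter left 42 of the genes, of which 16 rose and 3 fell at 16 weeks, and a pseudocount of 64 gave 5 rises at 5 weeks.

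Among genes of latency and activation 6 of 10 tested rose at 16 weeks and none fell. Ltbp1, which encodes a protein that anchors latent TGF-beta in the matrix, rose by 2.83 ± 0.0797 at 16 weeks (adjusted p = 3.77e-13, limma), from a signal of 184 ± 16.5 (SD, n = 3) in normal liver to 1405 ± 26.8. It was called at all 5 times and fell again from 16 to 18 weeks (-1.01 ± 0.0797, adjusted p = 5.19e-07). Itgb6, the beta subunit of an epithelial integrin that releases TGF-beta1, rose by 2.63 ± 0.212 (adjusted p = 4.52e-08), from 66.5 ± 10.4 to 498 ± 81.4. The normal level of Itgb6 lay under the filter level, so the size of its rise depends on the pseudocount. Ltbp4 rose by 1.97 ± 0.111 (adjusted p = 7.22e-10). Among extracellular antagonists 5 of 6 tested rose at 16 weeks. Dcn, which encodes decorin, a proteoglycan that binds TGF-beta, rose by 2.84 ± 0.0633 (adjusted p = 3.47e-14), the activin-binding follistatin gene Fst by 2.57 ± 0.285 at 18 weeks (adjusted p = 1.91e-06) and the BMP antagonist gene Grem1 by 2.43 ± 0.184 at 16 weeks (adjusted p = 2.18e-08).

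Ligands of the BMP and activin branch moved both ways, with 4 of 9 tested higher and 2 lower at 16 weeks. Inhbb, the activin B subunit gene, rose by 3.43 ± 0.313 (adjusted p = 1.83e-07, limma), from 15.5 ± 17.3 to 299 ± 67.5, where the normal level lies under the filter. Bmp4 rose by 2.52 ± 0.403 (adjusted p = 6.26e-05), from 41.3 ± 46.1 to 252 ± 38. Its normal level also lies under the filter level, with an SD above the mean, so the size of its change depends on the pseudocount. Inhbc and Inhbe, activin subunit genes expressed mainly in hepatocytes, were the 2 that fell. Inhbc had 935 ± 65.1 in normal liver and 220 ± 49.9 at 12 weeks (-2.03 ± 0.139, adjusted p = 8.97e-09), and Inhbe, named here after its values were seen, had 1999 ± 158 and 577 ± 38.2 (-1.76). Of 7 other receptors and of 12 other Smads and cofactors 1 and 2 rose at 16 weeks, shares near the 15.7% of all tested probe sets. They were Acvrl1 (1.14 ± 0.283, adjusted p = 0.00258), a type I receptor of endothelium, Pmepa1 (2.81 ± 0.0823, adjusted p = 5.68e-13), an inhibitor of Smad signalling that TGF-beta induces, and the corepressor gene Tgif1 (2.49 ± 0.0759, adjusted p = 8.76e-13).

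Of 15 other targets tested 8 rose and 1 fell at 16 weeks. Col1a1, a chain of type I collagen, rose by 3.87 ± 0.0893 (adjusted p = 5.01e-14, limma), from 151 ± 9.51 to 2421 ± 113. The contractile genes of myofibroblasts and smooth muscle, Tagln and Acta2, rose by 3.75 ± 0.328 and 2.71 ± 0.162 (adjusted p = 1.11e-07 and 1.52e-09). The gene that fell was Tgfbi, which encodes a TGF-beta-induced matrix protein, from 5359 ± 324 to 2546 ± 128 (-1.07), and it is named after its values were seen. From 16 to 18 weeks 5 of the 59 genes fell and none rose, where 2.74% of all tested probe sets fell, namely Ltbp1, Itgb6, Grem1, Col1a1 and Col1a2, with changes of -1.01, -1.18, -1.08, -1.10 and -1.01. After median centring none of the 59 was called at this step by limma (median -0.016, against 0.20 for all tested probe sets), with a pseudocount of 64 the count was 2 and with the stricter filter 3 of 42.

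**Figure D5:**
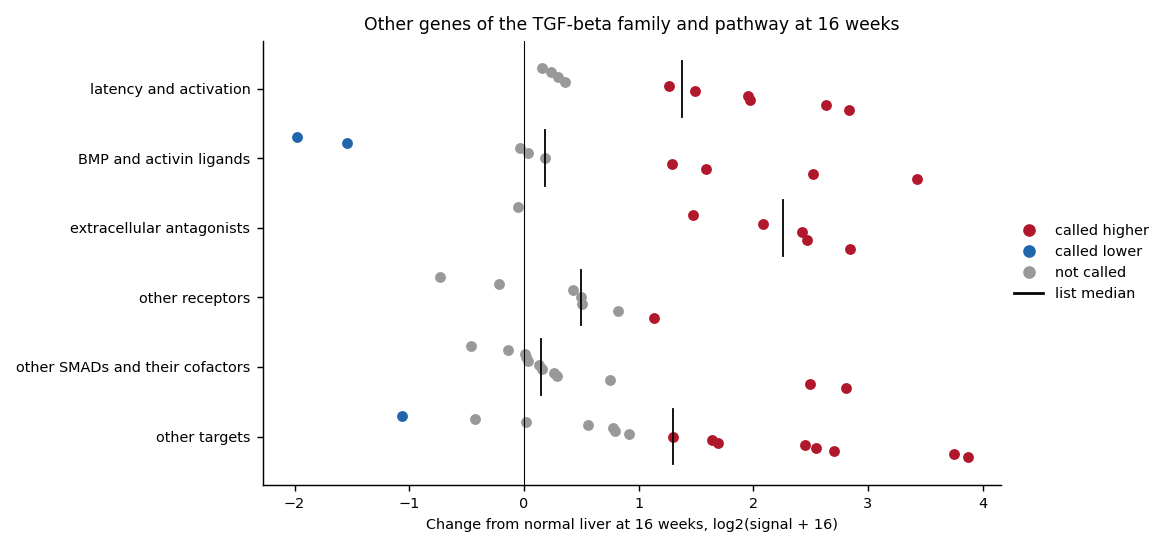
Change from normal liver at 16 weeks in log2(signal + 16) for the 59 tested genes of the 6 lists, 1 point per gene, coloured by call, with the list medians as vertical lines. Antagonists and genes of latency and activation lie mostly to the right (medians of 2.26 and 1.38), and other Smads and cofactors centre near 0 (0.14).

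Markers of several cell types moved with these genes. For scale, 5.18%, 7.76%, 12.4%, 15.7% and 10% of all tested probe sets rose against normal liver from 5 to 18 weeks. The shares that fell were 2.55%, 5.26%, 4.13%, 5.17% and 4.43%. Of 7 tested stellate cell markers 0, 2, 2, 5 and 3 rose from 5 to 18 weeks, and none fell. Their summed signal over 8 genes was 3831 to 3947 on the normal arrays, 5456 to 5567 at 5 weeks, 6264 to 6349 at 8 weeks, 7880 to 8182 at 12 weeks, 11136 to 11432 at 16 weeks and 7443 to 7819 at 18 weeks. Like Tgfb3 and Ctgf, this sum was highest at 16 weeks, and so were the sums of bile duct, mast cell, lymphocyte and platelet markers. No further scaling was applied to the sums. The median signal of the arrays was also highest at 16 weeks (mean of 180, against 126 in normal liver). Of 6 tested bile duct markers 0, 4, 6, 6 and 6 rose, and their summed signal over 7 genes was 1561 to 1592 on the normal arrays, 2243 to 2446 at 5 weeks, 2473 to 2599 at 8 weeks, 10115 to 10515 at 12 weeks, 13435 to 14651 at 16 weeks and 10663 to 11055 at 18 weeks. Of 8 macrophage markers none rose at any time and 2 fell at 16 weeks, with sums of 24905 to 25734 on the normal arrays, 25000 to 25451 at 5 weeks, 19019 to 20319 at 8 weeks, 20523 to 21013 at 12 weeks, 22562 to 23927 at 16 weeks and 21886 to 22105 at 18 weeks. Of 4 tested mast cell markers 2, 2, 4, 4 and 3 rose from 5 to 18 weeks and none fell. Their summed signal over 5 genes was 304 to 380 on the normal arrays, 681 to 843 at 5 weeks and 1010 to 1302 at 8 weeks. It was 2814 to 3131 at 12 weeks, 4018 to 4323 at 16 weeks and 1378 to 1581 at 18 weeks. In normal liver 4 of the 7 bile duct markers and 4 of the 5 mast cell markers had a group mean below the filter level. At 5 weeks this held for 3 markers of each list, so the sums there need not follow each list as a whole. Between 16 and 18 weeks 3 of the 4 mast cell markers fell, where 2.74% of all tested probe sets fell. Of 7 endothelial markers 1 rose and 2 fell at 16 weeks, and their sum was 8802 to 9508 on the normal arrays, 10284 to 11035 at 5 weeks, 9767 to 10750 at 8 weeks, 8040 to 8122 at 12 weeks, 6582 to 6861 at 16 weeks and 6339 to 6954 at 18 weeks. Lymphocyte and platelet sums were 1771 to 1936 and 655 to 718 on the normal arrays and 2963 to 3419 and 1044 to 1104 at 16 weeks. None of 5 tested lymphocyte markers was called at 16 weeks, and of 2 tested platelet markers 1 rose and 1 fell. No marker of the stellate, bile duct, macrophage, mast cell and endothelial lists had a group mean of 0, and the lowest defining markers in normal liver were the bile duct genes Krt7, a keratin, with 6.44 ± 0.707 there and 332 ± 16.4 at 16 weeks, and Cldn7, a claudin, with 6.81 ± 3.1 and 421 ± 68.3. The part of changed cell numbers in the TGF-beta genes was not tested.

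For each gene called at 1 time or more, the 3 most similar profiles were taken among 2480 called genes by the root mean square difference of the 5 changes from normal liver, in log2 units. Ctgf was nearest to Tagln (0.179), Krt7 (0.196) and Wnt4 (0.225), and Tgfb3 to Muc1 (0.107), Figf (0.134) and Serpine2 (0.173). Tgfbr3 was nearest to Lims1 (0.107), Angptl2 (0.127) and Agpat1 (0.185), and Smad7 to Zscan20 (0.160), Mat2a (0.167) and Wiz (0.167). Tgfb1 had no profile as close, with Fabp4 (0.385), Gstm4 (0.398) and Ckap2 (0.413), and nor did Tgfbr2 beyond its first, with Gna12 (0.214), Unc13b (0.354) and Msn (0.389). All these profiles share the same normal arrays.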

How the data were processed

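Total RNA of rat liver was labelled with biotin and hybridised to 18 arrays, 3 for each of 6 groups. Per the submitters' processing notes the authors used GCOS 2.0. The deposited value table holds a linear intensity for every probe set on every array, with a scaling target that no label states. A workbook gives gene symbols and the same intensities. Per the file headers it also holds 9 log2 ratios against 0 h at each time. That is the number of pairs of a treated and a normal array, but the headers do not say which arrays were paired. Its 3 normal columns held the values of the value table in another row order (r of 0.127 at most by probe set), so intensities came from the value table. The authors' deposited log2 ratios correlated at 0.961 to 0.981 with ratios from the value table and served as an alternative. Median signals per array group were 126 to 180. Precision is limited by the number of arrays, and since the labels call these technical replicates, the spread between animals is not known.

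Intensities were taken as log2(signal + 16), without another scaling. The 57 control probe sets and those with a mean at or below the 40th percentile were left out. All 6 groups entered a single fit in limma 3.58.1 (under R 4.3.3), and each time was contrasted with normal liver and with the preceding time. Calls needed a two-sided Benjamini-Hochberg adjusted p under 0.05 over all 18625 probe sets and a 2-fold change. A gene took its probe set with the highest mean. The fit was tested on simulated data. Other tools were pandas 2.3.3, numpy 2.4.6 and matplotlib 3.10.9 in Python 3.11.15.

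Genes, lists and naming rule were chosen with earlier results of these data known. The rule took all 10 genes, up to 3 called genes with the largest change per list, and the 3 nearest profiles per called gene. Deviations of arrays with the same replicate number correlated at -0.067 to 0.16, with 7 of 45 pairs above 0.1, so the numbers were not taken as pairs. Alternatives were leaving out each array, a block for the replicate number, quantile normalization or median centring, a pseudocount of 1 or 64, a filter at the 60th percentile or none, no fold threshold, robust variances with a trend, separate fits of the compared groups, and averaging the probe sets of a gene. The use of 5 weeks as reference and of the authors' log2 ratios was added after the data were seen.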

Additional observations from a re-analysis of the deposited data

Results flagged for a closer look

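The fit's own test of consecutive times picked out the following genes since their level at a later time differed from that at the time before it, past the threshold for a call. From 8 to 12 weeks these were Tgfb3 with 1.07, Tgfbr2 with 2.93, Tgfbr3 with 1.40 and Ctgf with 1.07 on the log2 scale. From 12 to 16 weeks it was Ctgf with 1.19. Of all tested probe sets 7.35% rose from 8 to 12 weeks and 0.864% from 12 to 16 weeks.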

How the results depend on the processing

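At 16 weeks against normal liver Tgfb1, Tgfb3 and Ctgf were called under each setting that tested them, while the stricter filter left Tgfb3 out. Over all probe sets the calls from 5 to 18 weeks against normal liver ranged, with each array left out in turn, over 1433 to 1496, 2410 to 2476, 3071 to 3163, 3845 to 3924 and 2681 to 2741, and over the 4 steps 562 to 596, 1688 to 1785, 248 to 271 and 541 to 617. Of the 9 genes, 1 to 3, 4, 3 to 5, 3 and 3 were then called. The higher count at 5 weeks came without the third normal array (3) or the first or second 5-week array (2), and the lower count at 12 weeks without the third normal array (3). With a pseudocount of 64 the calls at 5 and 8 weeks were 833 and 1574, and at the steps 317 (8 against 5 weeks), 165 (16 against 12) and 266 (18 against 16), and 3 of the 9 genes were called at 12 weeks. The stricter filter, which tests fewer probe sets, gave 822, 1426, 1891 and 2334 calls from 5 to 16 weeks, 360, 1017, 151 and 203 at the steps, and 2 of the genes at 12 weeks. No filter gave 397 and 1069 calls at the last 2 steps. With no fold threshold there were 9053, 10711, 11611, 12259 and 10830 calls against normal liver among 18625 tested probe sets. The steps then had 6068, 9310, 4416 and 6667 calls. Of the 9 genes 6, 7, 6 and 5 were called at 5, 8, 16 and 18 weeks. At 16 and 18 weeks these counts were near the shares called over all tested probe sets. Quantile normalization and median centring gave 341 and 329 calls at 18 against 16 weeks, and each gave 2 of the genes at 5 weeks and 3 at 12 weeks. A pseudocount of 1 gave 2 of the genes at 5 weeks. Against 5 weeks in place of normal liver 0 of the genes were called at 8 weeks and 6 at 16 weeks.

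Directions turned for genes that were not called. Tgfb2 had 0.26 and 0.48 at 5 and 8 weeks with the mean of its probe sets, -0.021 and -0.060 at 12 and 16 weeks after median centring, and -0.025 at 16 weeks after quantile normalization. Tgfbr1 had -0.063, -0.34, -0.11 and -0.096 at 5, 12, 16 and 18 weeks after median centring, and -0.76, -0.82, -0.25 and -0.30 at 5, 8, 12 and 18 weeks with the mean of its probe sets. Tgfbr3 had 0.023 at 5 weeks with the mean of its probe sets. With the mean of its probe sets Tgfb2 was called at 12, 16 and 18 weeks (1.25, 1.36 and 1.07). A replicate block gave 1442, 2420, 3086, 3882 and 2688 calls from 5 to 18 weeks and changed no call of the 9 genes. Other causes of these differences were not tested. Weak signals limit Tgfb1 in normal liver, Smad3 and Tgfbr2 at 8 weeks.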
